A study of Mus musculus with 6 samples.

Results

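Interferon-stimulated genes are the genes that cells switch on after an interferon binds its receptor. The 45 genes described here, of 52550 genes listed in the series, were taken by name from a list of such genes, and all 45 were found. The rule uses no measured value, though the list was drawn up with earlier results of these data known. They were split by name into 32 type I-type genes (sensors, the ISG15 system, the OAS, Ifit and Mx genes and others), 9 gamma-type genes (guanylate-binding proteins and immunity-related GTPases) and 4 genes of neither class. RNA-seq was performed on colon epithelial cells, released with EDTA, of 3 Zfp90fl/fl mice and 3 Zfp90ΔIEC mice on a C57BL/6 background. The mice were male, and the age in the labels, 6 to 8 weeks, can only be that before treatment. In Zfp90ΔIEC mice a Villin-cre transgene, active in the intestinal epithelium, removes exon 4 and the UTR after it from the floxed gene, which Zfp90fl/fl mice carry without Cre. All mice received 10 mg/kg azoxymethane (AOM, a colon carcinogen) and, after 5 days, 3 cycles of 7 days of 2% dextran sulfate sodium (DSS, which injures the colon) and 14 days of water, and were killed on day 80. The DSS dose is that of the labels, and the methods of the study give a higher one. Each mouse gave 1 sample, mice were housed by genotype so cage cannot be told apart from genotype, and no mice without AOM-DSS were included.

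Type I interferons (the alpha interferons and interferon beta) and type III interferons signal through the kinases JAK1 and TYK2 to a complex that holds STAT2 and IRF9 and binds the interferon-stimulated response element (ISRE) of antiviral genes. Interferon gamma, made by T cells and NK cells, signals through JAK1 and JAK2 to factors that bind the gamma-activated site (GAS) and raise IRF1, the guanylate-binding proteins and the immunity-related GTPases. The classes overlap, since many of these genes respond to either kind of interferon. Epithelial cells of the gut respond to all of them, and type III interferon acts there in particular.

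Zfp90 itself was at 0.630, 0.490 and 0.569 FPKM in Zfp90fl/fl replicates 1, 2 and 3, against 0.0846, 0.195 and 0.166 FPKM in Zfp90ΔIEC replicates 1, 2 and 3. FPKM counts fragments relative to transcript length and to the depth of the library. The groups did not overlap. Its log2 fold change was -0.44 ± 0.0565 (standard error, SE), with an adjusted p of 0.123 from limma in the fit without a filter on low values. For 2 of the Zfp90ΔIEC samples the genotype label names another gene number, and they were grouped by title. Epithelial markers dominated every library, with summed levels of 10593 to 13015 FPKM in Zfp90fl/fl and 13466 to 17271 FPKM in Zfp90ΔIEC, against at most 3.37 FPKM for stromal markers. The largest part of the epithelial sums was Car1, at 4032.9 to 5627.7 FPKM in Zfp90fl/fl and 6348.5 to 10058.8 FPKM in Zfp90ΔIEC. Estimated depth was 25.7 to 28.7 M fragments per sample, so that 1 fragment in a transcript of 1 kb is worth 0.0349 to 0.0389 FPKM.

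No interferon-stimulated gene passed the threshold between the genotypes, and the fold changes of the group centred on 0, as those of the transcriptome did. The 3 genes that came closest were Irf1 and Lgals3bp, lower in Zfp90ΔIEC mice, and Irf7, higher. What set many of these genes apart was a spread between mice of the same genotype, shared by most of the list: Zfp90fl/fl replicate 3 was high and Zfp90ΔIEC replicate 1 was low. The plot of all 45 genes in each mouse shows both features.

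**Figure D1:**
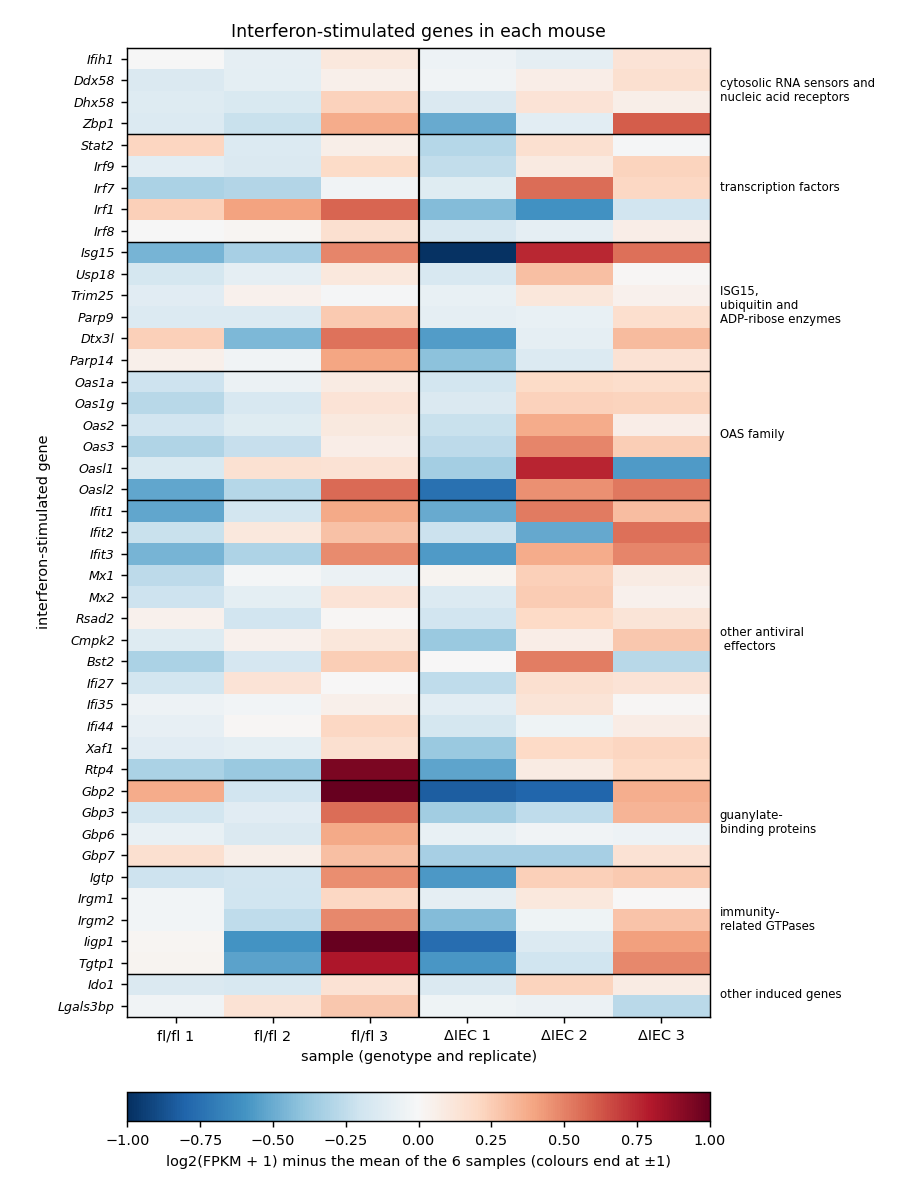
Level of the 45 interferon-stimulated genes (rows, grouped by role) in the 6 samples (columns), as log2(FPKM + 1) minus the mean of the gene over the 6 samples. Zfp90fl/fl replicate 3 is the highest of its genotype in 39 of the 45 genes and Zfp90ΔIEC replicate 1 the lowest of its genotype in 38, while Irf1 divides most clearly by genotype.

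Of the 45 genes, 33 reached 1 FPKM in at least 3 samples and were tested among 11564 genes. The 12 others were Usp18, Oas2, Oas3, Ifit2, Ifi44, Mx2, Xaf1, Gbp3, Gbp6, Iigp1, Tgtp1 and Ido1, and their statistics come from the fit without the filter. With limma, 0 of the 33 had an adjusted p under 0.05, where 0.13% of all genes tested were called lower and 0.0692% higher in Zfp90ΔIEC mice. At an unadjusted p under 0.05, 2 of the 33 were lower and 1 was higher, beside 8.09% and 6.56% of all genes tested. No sample of one genotype lay within the range of the other in 2 genes that were lower and 1 that was higher, beside 12.6% and 8.73% of all genes tested. None of these shares exceeds the background. The median log2 fold change was 0.01 over the 33 genes and -0.02 over all genes tested, with 15 of the 33 values below 0 and 18 above. On the scale of log2(FPKM + 1), the 95% interval of the fold change lay within 1 unit of 0 for 27 of the 33. For genes near 1 FPKM, such as Gbp7 and Ifit1, this scale compresses differences, and an interval within 1 unit can hold FPKM ratios beyond 2-fold.

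**Figure D2:**
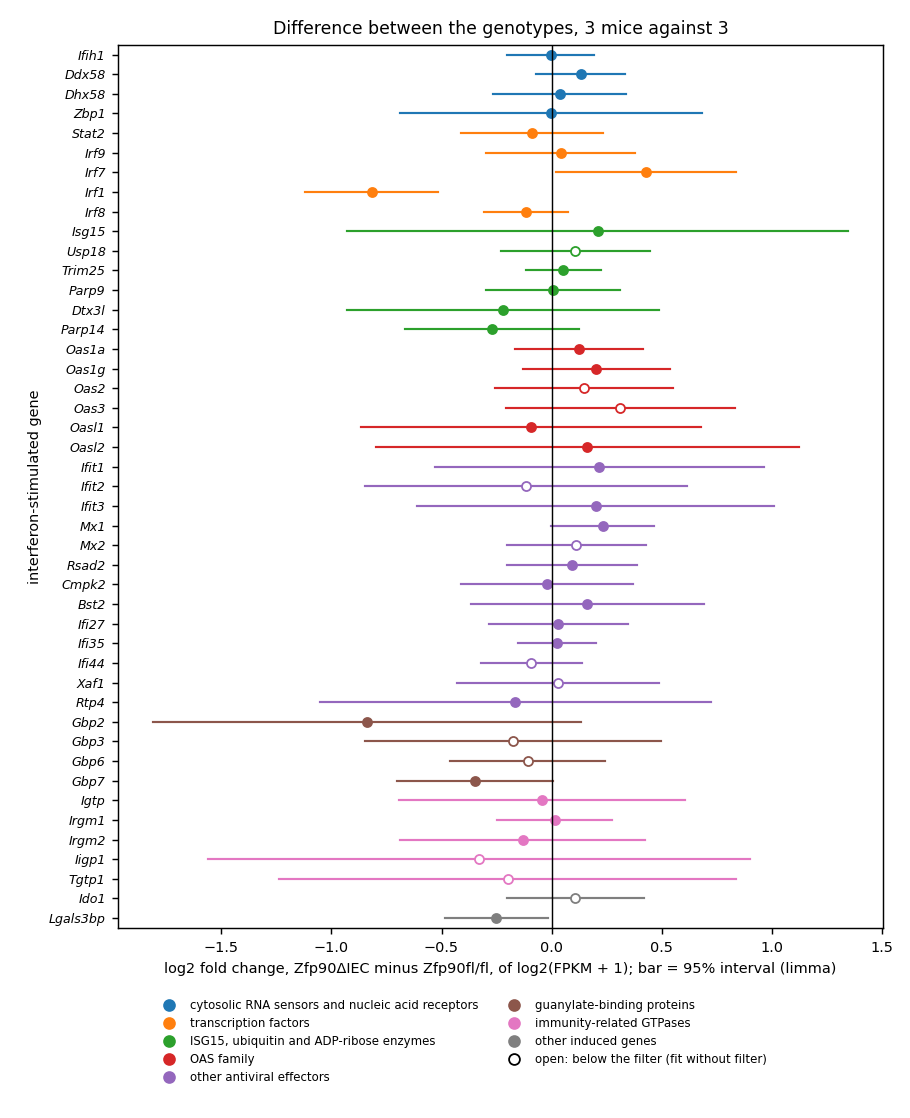
Log2 fold change (Zfp90ΔIEC minus Zfp90fl/fl, on the scale of log2(FPKM + 1)) of each interferon-stimulated gene with its 95% interval from limma, coloured by role, open where the gene lay below the filter. The intervals of Irf1, Irf7 and Lgals3bp do not include 0, and the widest belong to Iigp1, Isg15 and Tgtp1.

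Promoter windows of these genes were searched for cores of the ISRE and of the GAS. RefSeq windows of 250 bases before to 50 bases after the start (build GRCm38.p6) were at hand for 32 of the 45 genes. They were searched on both strands for an ISRE core, GAAANNGAAA or its complement TTTCNNTTTC, and for a GAS core, TTCNNNGAA, which reads the same on either strand. Overlapping matches were counted separately. At least 1 ISRE core was present in 7 of 7 gamma-type genes with a window and in 11 of 22 type I-type genes, against 3.99% of all 27025 genes with a window. A GAS core was present in 4 of 7 gamma-type and 4 of 22 type I-type genes, against 9.55% of all. Irf1 and Irf8 held a GAS core and no ISRE core, and Irf7 and Lgals3bp held neither. The matches are letters in these windows and not measured binding, and a missing match does not show that a gene lacks the element.

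The following stretches, 5′ to 3′ on the strand of the gene with the cores in capitals, show Irf1, the gene closest to the threshold, and genes of both classes with ISRE cores, of which Isg15, Ifit1, Gbp2 and Tgtp1 varied widely between mice and Irgm1 varied little. They were chosen after their values were seen, and no relation between cores and spread was tested. The Irf1 stretch (chr11:53769899-53769957, plus strand) has 1 GAS core. Those of Isg15 (chr4:156200850-156200921, minus strand) and Ifit1 (chr19:34640760-34640838, plus strand) have 3 and 2 ISRE cores, those of Isg15 overlapping. That of Gbp2 (chr3:142620579-142620638, plus strand) has 1 ISRE core, that of Irgm1 (chr11:48871421-48871475, minus strand) has 2 that overlap, and that of Tgtp1 (chr11:48992289-48992359, minus strand) has a GAS core and, after a short gap, an ISRE core.
Irf1: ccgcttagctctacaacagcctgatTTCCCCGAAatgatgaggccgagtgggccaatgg
Isg15: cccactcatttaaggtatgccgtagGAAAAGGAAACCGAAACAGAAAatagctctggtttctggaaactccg
Ifit1: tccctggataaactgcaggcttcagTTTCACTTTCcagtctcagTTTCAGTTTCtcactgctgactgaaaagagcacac
Gbp2: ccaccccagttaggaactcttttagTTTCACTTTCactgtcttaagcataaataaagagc
Irgm1: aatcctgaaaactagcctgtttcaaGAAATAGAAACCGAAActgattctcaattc
Tgtp1: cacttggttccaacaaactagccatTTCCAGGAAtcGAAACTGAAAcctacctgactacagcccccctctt

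Among the ligands, 17 of 21 interferon genes were listed at 0 in all 6 samples, Ifnb1, the gene of interferon beta, included. Ifna13, Ifnk and Ifnl2 were each at no more than 0.0438 FPKM, near the worth of 1 fragment. Ifng, the gene of interferon gamma, was at 0.143, 0.176 and 0.204 FPKM in Zfp90fl/fl replicates 1, 2 and 3. It was at 0.0566, 0.0539 and 0.196 FPKM in Zfp90ΔIEC replicates 1, 2 and 3. These values correspond to about 4.44, 5.96 and 6.95 fragments and 1.87, 1.87 and 6.60 fragments. On these few fragments no difference between the genotypes was detected (limma adjusted p = 0.661 in the fit without the filter). Zfp90ΔIEC replicate 3 lay among the Zfp90fl/fl samples.

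The receptors were present in the epithelium of both genotypes. Ifngr1, the ligand-binding chain for interferon gamma, was the highest at 71.8, 79.1 and 79.7 FPKM in Zfp90fl/fl and 74.0, 79.0 and 77.5 FPKM in Zfp90ΔIEC mice. Ifngr2, its partner chain, was at 37.5, 41.6 and 38.3 FPKM and 32.9, 32.8 and 36.6 FPKM, without overlap (-0.19 ± 0.0693 SE on the log2 scale, limma adjusted p = 0.279, unadjusted p = 0.0274). Ifnar1, a chain of the type I receptor, was at 5.70, 5.86 and 6.31 FPKM and 5.21, 5.603 and 5.32 FPKM, also without overlap, with an adjusted p of 0.410 from limma. Ifnlr1, the chain particular to the type III receptor, was at 3.41 to 4.10 FPKM and 3.51 to 3.83 FPKM, its partner Il10rb at 13.6 to 15.3 FPKM and 13.7 to 15.5 FPKM, and Ifnar2 at 0.514 to 0.630 FPKM and 0.482 to 0.770 FPKM, all overlapping. Of the kinases Jak1, Jak2 and Tyk2 none passed the threshold, and Tyk2 had the only unadjusted p under 0.05 (-0.16 ± 0.0566 SE on the log2 scale, limma adjusted p = 0.262).

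Of the 4 sensors, which detect viral RNA or other nucleic acids inside the cell, none passed the threshold, with log2 fold changes from -0.01 to 0.13. Ifih1, which encodes MDA5, had the highest level, 8.02, 7.53 and 8.75 FPKM in Zfp90fl/fl and 7.76, 7.504 and 8.96 FPKM in Zfp90ΔIEC mice. Its samples were interleaved, and the 95% interval of its log2 fold change ran from -0.20 to 0.19. Ddx58, which encodes RIG-I, was at 1.98, 2.07 and 2.41 FPKM and 2.22, 2.46 and 2.69 FPKM (0.13 ± 0.0848 SE on the log2 scale, limma adjusted p = 0.532). Dhx58, which encodes their relative LGP2, was at 1.87, 1.81 and 2.67 FPKM and 1.83, 2.45 and 2.25 FPKM, with a log2 fold change of 0.04. Both overlapped between the genotypes.

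The transcription factors held the member nearest to a genotype difference, Irf1, and the third nearest, Irf7. Irf1, a factor that interferon gamma raises early and that in turn acts on other members, was at 32.2, 36.3 and 41.2 FPKM in Zfp90fl/fl replicates 1, 2 and 3. It was at 19.8, 17.6 and 23.7 FPKM in Zfp90ΔIEC replicates 1, 2 and 3. Every Zfp90ΔIEC sample lay below every Zfp90fl/fl sample. The mean was 36.6 ± 4.47 FPKM (SD, n = 3) in Zfp90fl/fl and 20.4 ± 3.11 FPKM (SD, n = 3) in Zfp90ΔIEC mice, 0.557 times as high. Its log2 fold change was -0.82 ± 0.127 (SE, 95% interval -1.12 to -0.52), and with an adjusted p of 0.0664 from limma it did not pass the threshold. With each mouse left out in turn the value stayed between -0.93 and -0.72. Irf1 (ENSMUSG00000018899) lies on chromosome 11 of GRCm38, from 53770014 to 53778374, on the plus strand.

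Irf7, the factor that amplifies the type I response, was at 7.86, 8.00 and 9.78 FPKM in Zfp90fl/fl and 9.13, 15.3 and 11.7 FPKM in Zfp90ΔIEC mice. The groups overlapped, since Zfp90fl/fl replicate 3 lay above Zfp90ΔIEC replicate 1. The log2 fold change of Irf7 was 0.43 ± 0.172 (SE, limma adjusted p = 0.323, unadjusted p = 0.0420) and it ran from 0.25 to 0.60 with a mouse left out. Stat2 and Irf9, partners in the ISRE complex, had log2 fold changes of -0.09 and 0.04. Irf8, a factor best known from myeloid cells, was at 9.54 to 10.8 FPKM in Zfp90fl/fl and 8.45 to 10.1 FPKM in Zfp90ΔIEC mice, with overlap. Lgals3bp, a secreted glycoprotein gene that interferons raise, had the highest mean of the 45 genes and was at 31.5, 35.8 and 39.2 FPKM and 31.3, 30.9 and 26.6 FPKM. The gap between the groups was narrow, from 31.3 to 31.5 FPKM, and the log2 fold change was -0.25 ± 0.0987 (SE, limma adjusted p = 0.313, unadjusted p = 0.0382).

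**Figure D3:**
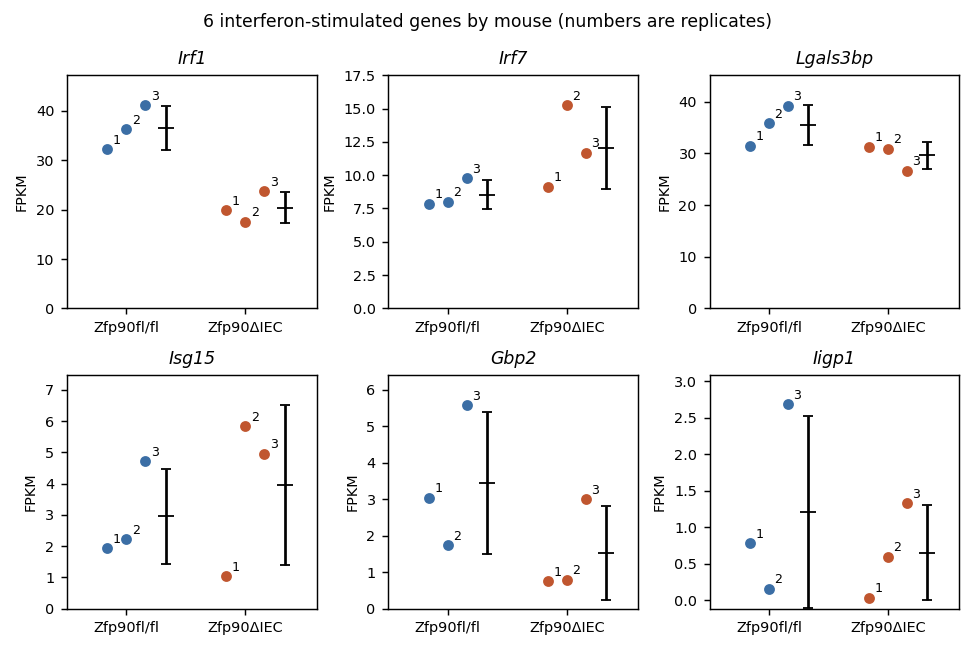
FPKM of 6 interferon-stimulated genes in each mouse (points, numbered by replicate), with the mean and SD of the 3 mice of each genotype (black bars). Irf1 separates the genotypes (17.6 to 23.7 FPKM in Zfp90ΔIEC against 32.2 to 41.2 FPKM in Zfp90fl/fl), whereas Isg15, Gbp2 and Iigp1 overlap and spread widely within a genotype.

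In the ISG15 system, a ubiquitin-like modifier with its enzymes, and the ADP-ribose enzymes, 0 of the 5 genes tested passed. Trim25, a ubiquitin ligase of the RIG-I pathway, was the highest, at 16.1, 18.1 and 17.3 FPKM in Zfp90fl/fl and 16.5, 19.0 and 17.97 FPKM in Zfp90ΔIEC mice, with a 95% interval of its log2 fold change from -0.12 to 0.22. Parp14 was at 4.61, 4.28 and 6.14 FPKM and 3.07, 3.93 and 4.97 FPKM (-0.27 ± 0.166 SE on the log2 scale, limma adjusted p = 0.509). Dtx3l, the ubiquitin ligase that pairs with PARP9, was at 8.35, 4.79 and 10.5 FPKM and 4.37, 6.44 and 8.87 FPKM, with a log2 fold change of -0.22. For both genes the groups overlapped and Zfp90ΔIEC replicate 1 had the lowest value of all 6.

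The OAS genes encode sensors of double-stranded RNA that activate RNase L, or their relatives. Oas1a was the highest of them at 23.5, 26.1 and 28.9 FPKM in Zfp90fl/fl and 23.9, 31.4 and 30.9 FPKM in Zfp90ΔIEC mice, with a log2 fold change of 0.12 ± 0.122 (SE). Oas1g was at 8.83, 9.64 and 12.1 FPKM and 9.76, 12.9 and 12.9 FPKM, with a log2 fold change of 0.20 ± 0.141 (SE, limma adjusted p = 0.560). Oas1a and Oas1g are near copies that can share reads, so their split is uncertain. Oasl2 was at 1.33, 1.75 and 3.95 FPKM and 1.00, 3.60 and 3.82 FPKM, and its spread within each genotype, 2.97-fold and 3.815-fold from the lowest to the highest mouse, was far larger than its difference between genotypes. All 6 OAS genes overlapped.

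Of the 13 other antiviral effectors, 9 were tested and 0 passed, with log2 fold changes from -0.16 to 0.23. Mx1, a GTPase that blocks viral replication, was at 0.860, 1.195 and 1.14 FPKM in Zfp90fl/fl and 1.27, 1.63 and 1.37 FPKM in Zfp90ΔIEC mice. It was the only member without overlap on the higher side (0.23 ± 0.0986 SE on the log2 scale, limma adjusted p = 0.346, unadjusted p = 0.0517). Laboratory strains such as C57BL/6 carry a defective allele of Mx1. Ifit1, which binds foreign RNA, was at 0.965, 1.47 and 2.65 FPKM and 0.978, 3.03 and 2.48 FPKM, and Ifi27, the highest of these effectors, at 10.8, 13.8 and 12.5 FPKM and 10.3, 14.0 and 13.7 FPKM. Both overlapped, and the 95% interval of the log2 fold change was narrow for Ifi27, from -0.29 to 0.34, and wide for Ifit1, from -0.53 to 0.96.

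The gamma-type genes had mostly negative fold changes, and none passed. Gbp2, a guanylate-binding protein that coats intracellular pathogens, had the largest fold change of the 33 genes tested and one of the largest errors. It was at 3.04, 1.73 and 5.57 FPKM in Zfp90fl/fl and 0.762, 0.7999 and 3.003 FPKM in Zfp90ΔIEC mice. Zfp90ΔIEC replicate 3 lay within the Zfp90fl/fl range and the other two lay below it. The log2 fold change was -0.84 ± 0.410 (SE, 95% interval -1.81 to 0.13, limma adjusted p = 0.407). Gbp7 repeated this arrangement at 1.14, 0.986 and 1.35 FPKM and 0.517, 0.514 and 1.11 FPKM (-0.35 ± 0.149 SE on the log2 scale, limma adjusted p = 0.346, unadjusted p = 0.0522). In Ifng, too, Zfp90ΔIEC replicate 3 lay among the Zfp90fl/fl samples and the other two below them, on few fragments. Gbp3 and Gbp6, below the filter, had log2 fold changes of -0.18 and -0.11.

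The immunity-related GTPases, which attack the vacuoles of intracellular parasites, did not share the low values of Gbp2 in Zfp90ΔIEC replicate 2, which lay within the range of the Zfp90fl/fl mice in all 5. Irgm1, the highest at 5.83, 5.08 and 7.04 FPKM in Zfp90fl/fl and 5.56, 6.48 and 5.99 FPKM in Zfp90ΔIEC mice, had a log2 fold change of 0.01. Irgm2 was at 3.77, 3.07 and 5.78 FPKM and 2.59, 3.71 and 4.90 FPKM, and Igtp at 2.47, 2.51 and 4.51 FPKM and 1.69, 3.74 and 3.81 FPKM, with log2 fold changes of -0.13 ± 0.234 and -0.04 ± 0.273 (SE). Their groups overlapped. Over the 5 gamma-type genes tested the median log2 fold change was -0.13, against 0.04 over the 25 type I-type genes tested and -0.02 over all genes. The gamma-type median turned to 0.08 without Zfp90fl/fl replicate 3 and to 0.05 without Zfp90ΔIEC replicate 1, so its sign rests on either of these mice.

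The spread between mice was the main feature of the list. The SD within a genotype, pooled over both on the log2 scale, had a median of 0.213 over the 33 genes and 0.1004 over all genes tested. The members also had lower levels, with a median of 3.97 FPKM against 6.38 FPKM, and the part of level in this spread was not tested. Zfp90fl/fl replicate 3 was the highest of its genotype in 39 of 45 members (27 of the 33 tested), where it was the highest in 29.2% of all genes tested, and it was the lowest in 0 of 45. Zfp90ΔIEC replicate 1 was the lowest of its genotype in 38 of 45 (27 of the 33 tested), against 35.8% of all genes tested. Both held at once in 33 of the 45 genes, 73.3%, against 12.1% of all genes tested. At the other ends, Zfp90fl/fl replicate 1 was the lowest of its genotype in 28 of 45, against 36.3% of all genes tested. Zfp90ΔIEC replicates 2 and 3 were the highest of their genotype in 21 and 23 of 45, against 34.9% and 27.8%. The order thus partly followed the replicate numbers, and whether these mark a shared step was not tested. Since these genes respond together, they are not independent counts, and the samples concerned were noted from these same values.

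Members with wide ranges between mice, chosen after their values were seen, show the size of this spread. Isg15, the modifier itself, was at 1.94, 2.22 and 4.71 FPKM in Zfp90fl/fl and 1.04, 5.84 and 4.97 FPKM in Zfp90ΔIEC mice, a 5.59-fold range within Zfp90ΔIEC beside a ratio of means of 1.34. Rtp4, a transporter-like effector gene, was at 0.528, 0.474 and 2.66 FPKM and 0.322, 1.03 and 1.19 FPKM. Iigp1 was at 0.785, 0.1596 and 2.68 FPKM and 0.0351, 0.598 and 1.33 FPKM, a range of 16.8-fold and 37.8-fold, the lowest value being about 1 fragment per kilobase. Tgtp1, which has a near-identical neighbour Tgtp2, was at 0.628, 0.0999 and 1.81 FPKM and 0.0686, 0.395 and 1.23 FPKM. In all 4 genes the genotypes overlapped and Zfp90ΔIEC replicate 1 was the lowest of the 6 samples. In Irf1, by contrast, the ratio of the highest to the lowest mouse was 1.28 within Zfp90fl/fl and 1.35 within Zfp90ΔIEC mice.

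Type I-type and gamma-type genes both had their highest mean in Zfp90fl/fl replicate 3 and their lowest in Zfp90ΔIEC replicate 1, but ranked the other mice differently. The mean of log2(FPKM + 1) over the 32 type I-type genes, relative to the mean of the Zfp90fl/fl samples, was -0.15, -0.10 and 0.24 in Zfp90fl/fl replicates 1, 2 and 3 and -0.25, 0.23 and 0.20 in Zfp90ΔIEC replicates 1, 2 and 3. Over the 9 gamma-type genes it was -0.11, -0.36 and 0.47 and -0.57, -0.28 and 0.13. Zfp90ΔIEC replicate 2 was thus near the top for type I-type genes and below the Zfp90fl/fl mean for gamma-type genes. The difference between the classes was -0.03, 0.27 and -0.23 in Zfp90fl/fl and 0.32, 0.51 and 0.08 in Zfp90ΔIEC mice. These groups overlap, with means of 0.00 ± 0.250 (SD, n = 3) and 0.30 ± 0.219 (SD, n = 3), and no test was made of this score.

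**Figure D4:**
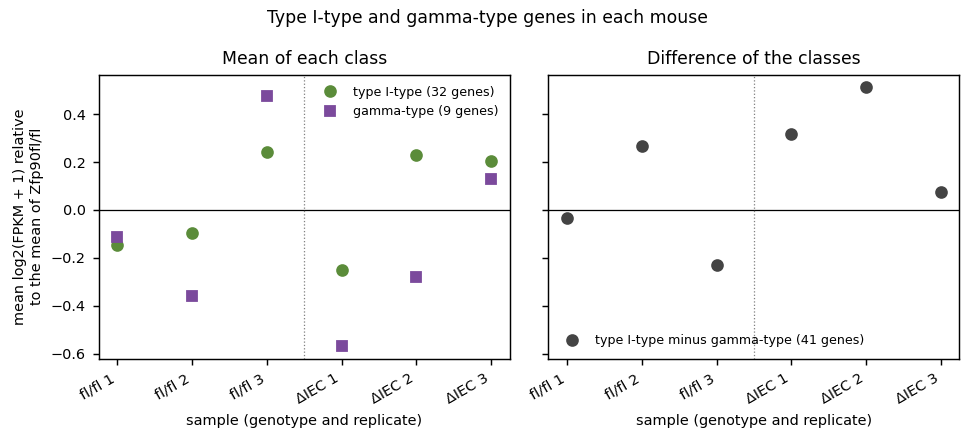
Mean log2(FPKM + 1) of the 32 type I-type genes (circles) and 9 gamma-type genes (squares) in each sample, relative to the mean of the 3 Zfp90fl/fl samples, at left, and the difference of the classes at right. Zfp90ΔIEC replicate 2 is at 0.23 for type I-type and -0.28 for gamma-type genes, and the difference overlaps between the genotypes.

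In a further list of 67 interferon-stimulated genes outside the 45, the same samples stood at the ends. Among the 40 that passed the filter, Zfp90fl/fl replicate 3 was the highest of its genotype in 26, against 29.2% of all genes tested. Zfp90ΔIEC replicate 1 was the lowest of its genotype in 29 of these 40, against 35.8% of all genes tested. Over all 67 genes the counts were 43 and 47. The count of 47 includes low genes in which Zfp90ΔIEC replicate 1 only tied with another sample at 0. Of 40 tested, 0 passed the threshold, and at an unadjusted p under 0.05 there were 4 lower and 1 higher, beside the 8.09% and 6.56% of all genes tested, with a median log2 fold change of -0.05. Ifitm3, an inhibitor of virus entry, was at 14.3, 16.5 and 14.6 FPKM in Zfp90fl/fl and 9.32, 11.7 and 11.2 FPKM in Zfp90ΔIEC mice (-0.46 ± 0.0962 SE on the log2 scale, limma adjusted p = 0.115). Its relative Ifitm1, below the filter, was at 0.828, 0.455 and 0.615 FPKM and 0.111, 0.0495 and 0.144 FPKM (-0.56 ± 0.0906 SE on the log2 scale, limma adjusted p = 0.165 without the filter). Ube2l6 (log2 fold change -0.42, adjusted p = 0.260) and Uba7 (-0.27, adjusted p = 0.331 from limma), both enzymes of ISG15 conjugation, and Trafd1 (-0.19) had negative values, and the exonuclease gene Isg20 a positive one (0.22, adjusted p = 0.191 from limma). Of the 7 negative regulators tested 0 passed. Socs3, an inhibitor of JAK signalling, was at 6.42, 7.35 and 10.6 FPKM and 4.11, 4.73 and 4.76 FPKM without overlap (-0.70 ± 0.162 SE on the log2 scale, limma adjusted p = 0.131), and the exonuclease gene Trex1 had a log2 fold change of -0.29. Of the 9 genes tested in the pathway that induces interferon 0 passed, and Tmem173, which encodes the adaptor STING, was at 3.09, 3.68 and 3.64 FPKM and 2.36, 2.19 and 2.71 FPKM (-0.39 ± 0.0882 SE on the log2 scale, limma adjusted p = 0.128).

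Summed markers of macrophages, dendritic cells and B and plasma cells were lower in Zfp90ΔIEC mice without overlap. Those of neutrophils and of T and NK cells overlapped between the genotypes. The 8 macrophage markers summed to 29.5 to 33.5 FPKM in Zfp90fl/fl and 15.8 to 17.9 FPKM in Zfp90ΔIEC mice, 6 of 8 being lower without overlap, beside 12.6% of all genes tested, and Cd14, which made up most of the sum, passed the threshold (-0.84 ± 0.0807 SE on the log2 scale, limma adjusted p = 0.0219). The 7 dendritic cell markers summed to 0.867 to 0.904 FPKM and 0.126 to 0.419 FPKM, and the 7 B and plasma cell markers, mostly Igkc, to 3.90 to 6.26 FPKM and 0.872 to 1.599 FPKM. Beside the same 12.6%, 4 of 7 dendritic cell and 3 of 7 B and plasma cell markers were lower without overlap. So were 4 of 7 neutrophil and 2 of 12 T and NK cell markers. The 7 neutrophil markers summed to 25.2 to 47.2 FPKM and 21.9 to 33.0 FPKM with overlap, most of it from Ly6g, which was at 24.8, 24.0 and 44.7 FPKM and 25.7, 21.9 and 32.9 FPKM (limma adjusted p = 0.802). The other 6, summed without Ly6g after its values were seen, came to 1.23 to 2.47 FPKM and at most 0.03003 FPKM, with S100a8, S100a9, Cxcr2 and Retnlg listed at 0 in all Zfp90ΔIEC samples. Itgam (limma adjusted p = 0.0199) and Csf3r (limma adjusted p = 0.0177), both below the filter, were lower in the fit without it. Of the other markers that passed the filter, Igkc and Pdgfrb, with lower values, and Krt18, Car1 and Slc26a3, with higher values, had an unadjusted p under 0.05, and none of these passed (lowest adjusted p = 0.0664 from limma). In bulk RNA fewer cells of a type and less RNA per cell cannot be told apart. The part of leukocytes in the values of Irf1, Ifitm3, Socs3 and Tmem173 was not tested. Beside the spread between mice, the 12 T and NK cell markers summed to 7.12, 3.82 and 13.35 FPKM in Zfp90fl/fl replicates 1, 2 and 3 and to 4.15, 3.33 and 4.23 FPKM in Zfp90ΔIEC replicates 1, 2 and 3, highest in the sample with the highest gamma-type genes. Of the 13.35 FPKM in Zfp90fl/fl replicate 3, Gzma made up 6.06 FPKM and Gzmb 2.65 FPKM. Ly6g, too, was highest in that sample, as was the sum of the other 6 neutrophil markers, at 2.47 FPKM. In Zfp90ΔIEC mice, though, Ly6g stayed at 21.9 to 32.9 FPKM where that sum was at most 0.03003 FPKM. In Zfp90ΔIEC replicate 1, where most members were lowest, the goblet cell mucin gene Muc2 was at 1010 FPKM, against 593 and 465 FPKM in replicates 2 and 3 and 431 to 444 FPKM in Zfp90fl/fl mice. Muc2 belongs to the 13 epithelial markers, most of which were instead the lowest of their genotype in Zfp90ΔIEC replicate 1. Their sum was 13466, 17271 and 14365 FPKM in Zfp90ΔIEC replicates 1, 2 and 3. Car1 alone made up 6348.5, 10058.8 and 7206.3 FPKM of it, so this order rests largely on that gene. The part of these cells was not tested.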

How the data were processed

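The values are FPKM per gene, 1 file per mouse, deposited by the authors from strand-specific paired-end TruSeq libraries. The submitters' notes name FastQC, STAR 2.5, Cuffnorm and DESeq 1.22.1 and the build mm9, whereas the methods of the study name other mapping tools and a human genome. The files hold mouse Ensembl identifiers, 52403 of 52550 with a symbol in GENCODE vM21 (GRCm38). How reads shared by near-identical genes were split is not given in the sources used here. Fragments per sample were estimated from the steps between low values, of which 61.4% to 68.0% lay within 0.1 of a whole number of fragments, too few for a test on counts.

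FPKM were transformed to log2(FPKM + 1), which understates the change of low genes. The 11564 genes that reached 1 FPKM in 3 or more samples were compared between 3 and 3 samples with limma 3.58.1 in R 4.3.3 (trend in the empirical Bayes step, Benjamini-Hochberg adjustment over all genes tested, threshold 0.05), a script first tested on simulated data. Mice were kept apart by genotype, how many shared a cage is not given in the sources used here, and p-values measure the spread between these 6 samples. Members below the filter take their statistics from the fit without it. Members, classes, roles and lists were chosen with earlier results of these data known. Values are printed for the members of largest change, 2 per role, the highest of each role and those with an unadjusted p under 0.05, and for ligands, receptors and list genes with an unadjusted p under 0.05. The class difference score was also computed under settings added after values were seen. Of 181 list genes, 180 were used, since 1 older symbol (Iigp2) named a member. Figures were made with Python 3.11.15 and matplotlib 3.10.9. Promoter sequences are from RefSeq (GRCm38.p6). The result of 1 gene of the pathway lists is not reported here.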

Additional observations from a re-analysis of the deposited data

How the results depend on the processing

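Of the 33 members tested, 0 were called lower or higher with a pseudocount of 0.1, without the filter, with a filter at 0.1 FPKM, after median ratio scaling or quantile normalization, and with each sample left out. Over all genes, 23 calls became 13 with a pseudocount of 0.1, 15 without the filter, 31 with the filter at 0.1 FPKM, 25 with median ratio scaling, 20 with quantile normalization, and 10 (without Zfp90fl/fl replicate 2) to 21 with a sample left out. Over all genes tested, same-numbered samples deviated together with correlations of 0.19, 0.11 and 0.08, which is not enough to pair them by number. No such correlation was computed over the members alone. A fit with the replicate number as a block lowered the SE of nearly all members tested, that of Gbp2 from 0.410 to 0.133. It raised the SE only of Stat2 (from 0.136 to 0.159), Rsad2, Bst2 and Lgals3bp. The replicate number thus took up part of the spread in most members. With the replicate block, 47 genes were called and 1 member was lower, Irf1 (log2 fold change -0.82, limma adjusted p = 0.0487, and between 0.0487 and 0.194 under all 12 alternatives). Members without overlap went from 3 to between 3 and 9 when a sample was left out, as fewer samples overlap less often. The sign of Ifih1, near 0, turned to 0.0151 with median ratio scaling and 0.0163 with quantile normalization. With a sample left out, the sign was not constant for Ifih1 (-0.0739 to 0.0458), Dhx58 (-0.0330 to 0.16), Oasl2 (-0.0621 to 0.57), Ifi27 (-0.0551 to 0.16), Irgm1 (-0.0824 to 0.12), Igtp (-0.19 to 0.23), Irgm2 (-0.31 to 0.0754) and Dtx3l (-0.50 to 0.0037), and the cause was not tested. The other 12 of the 20 named members kept their sign in all 12 alternatives. Under the alternatives the class medians ran from -0.31 to 0.08 for gamma-type and from -0.0045 to 0.17 for type I-type genes. The class difference, 0.30, ran from 0.19 to 0.53 in alternatives added after values were seen. Genes below 1 FPKM rest on few fragments, and the shared-read families Oas1a and Oas1g, Tgtp1 and Tgtp2, Ifit3 and Ifit3b, and Gbp6 and Gbp10 limit single-gene values.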
